A study of Mus musculus with 8 samples.

Results

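BCL2 and its relatives decide whether the outer membrane of the mitochondrion stays intact. This account covers the survival members Bcl2, Bcl2l1 (encoding BCL-XL), Bcl2l2 (BCL-W), Bcl2l10 and Mcl1, and the pore formers Bak1 and Bok, in spleens of mice that lack Nix. All probe sets that the platform annotation assigns to these 7 genes were taken, which gave 23 of the 45101 in the deposited table, and each of the 23 is annotated to 1 gene only. Bax, the other main pore former, was not analysed here.

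Each array, of an Affymetrix mouse expression type, measured the total RNA of 1 whole spleen, and no RNA was pooled. The Nix_KO group held 4 Nix null (Nix-/-) mice, with arrays numbered 10, 2, 3 and 6 in the labels, and the WT group held 4 wild-type mice, with arrays numbered 3, 4, 5 and 6. All 8 mice were 8 weeks old and untreated. Strain, sex, the deleted part of the gene and whether the genotypes were littermates are not given in the sources used here, so the p-values below measure only the spread between these spleens. Nix, encoded by Bnip3l, is itself a mitochondrial protein of the BCL2 family, and the series title names apoptosis and erythropoiesis as its questions.

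In a living cell the survival proteins bind the pore formers and the BH3-only death activators and hold them inactive. When that hold fails, BAK and BAX open the outer membrane, cytochrome c leaves the mitochondrion and caspases are activated. Cell types of the spleen are known to lean on different survival members: maturing red cell precursors on BCL-XL, resting lymphocytes on BCL2, and lymphoid, myeloid and stem cells on MCL1.

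Values are log2 intensities. The filter on dim probe sets kept the 22347 with a log2 intensity of 5 or more in any 4 or more arrays. Each difference is Nix_KO minus WT from 1 limma fit over all of these, with p-values adjusted over the whole set by Benjamini-Hochberg, and a call needs an adjusted p under 0.05. Of all probe sets tested 30% passed, 12.5% higher and 17.6% lower in Nix_KO, and their median difference was -0.12. Higher calls were 41.6% of all calls, and 52.4% with each array centred on its median. The 3 probe sets for Bnip3l are annotated jointly to its pseudogene Bnip3l-ps and differed by 0.43, -0.50 and 0.58 (limma adjusted p = 0.158, 0.164 and 0.117), and the brightest read 12.35 to 13.16 in Nix_KO and 11.95 to 12.57 in WT arrays. No source used here says whether these probes lie in the deleted part, so they do not check the genotype labels. B cell markers were bright in every array of both genotypes, at a list mean of 9.70 or more, B cells being a main cell type of spleen. The arrays Nix_KO 3, WT 3 and WT 5 stood apart by pancreatic acinar genes, of which 12 were tested: their mean log2 intensity was 12.90 in Nix_KO 3, 11.87 in WT 3 and 9.82 in WT 5, against 5.22 to 7.26 in the other 5 arrays. Without these 3 arrays, which leaves 3 Nix_KO and 2 WT, 690 probe sets passed in place of 6711, and each member's result below is also given for that smaller set.

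Bcl2l1 rose in Nix_KO spleens, while Bcl2, Mcl1, Bcl2l2 and Bok had probe sets that fell and Bak1 did not pass the test. Of the 23 probe sets 17 passed the filter on dim probe sets: 11 were called, against 30% of all probe sets tested, with 3 higher, all of Bcl2l1, and 8 lower, namely 3 of Bcl2, 3 of Mcl1 and 1 each of Bcl2l2 and Bok. The other 6 of the 17 did not pass the test. Genotypes did not overlap in 3 higher and 7 lower probe sets, where 34.6% of all probe sets tested had no overlap, 15% higher and 19.5% lower. The median difference of the 17 was -0.72, but probe sets of 1 gene share that gene and are not independent. With each array centred on its median, the median of all 22347 probe sets tested was 0.0001, and 3377 of them were called higher and 3073 lower. In that fit 3 member probe sets were called higher and 6 lower. Without the 3 arrays with pancreatic signal 1 member probe set was called higher and 0 lower by limma, and 7 were lower at an unadjusted p under 0.05.

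**Figure D1:**
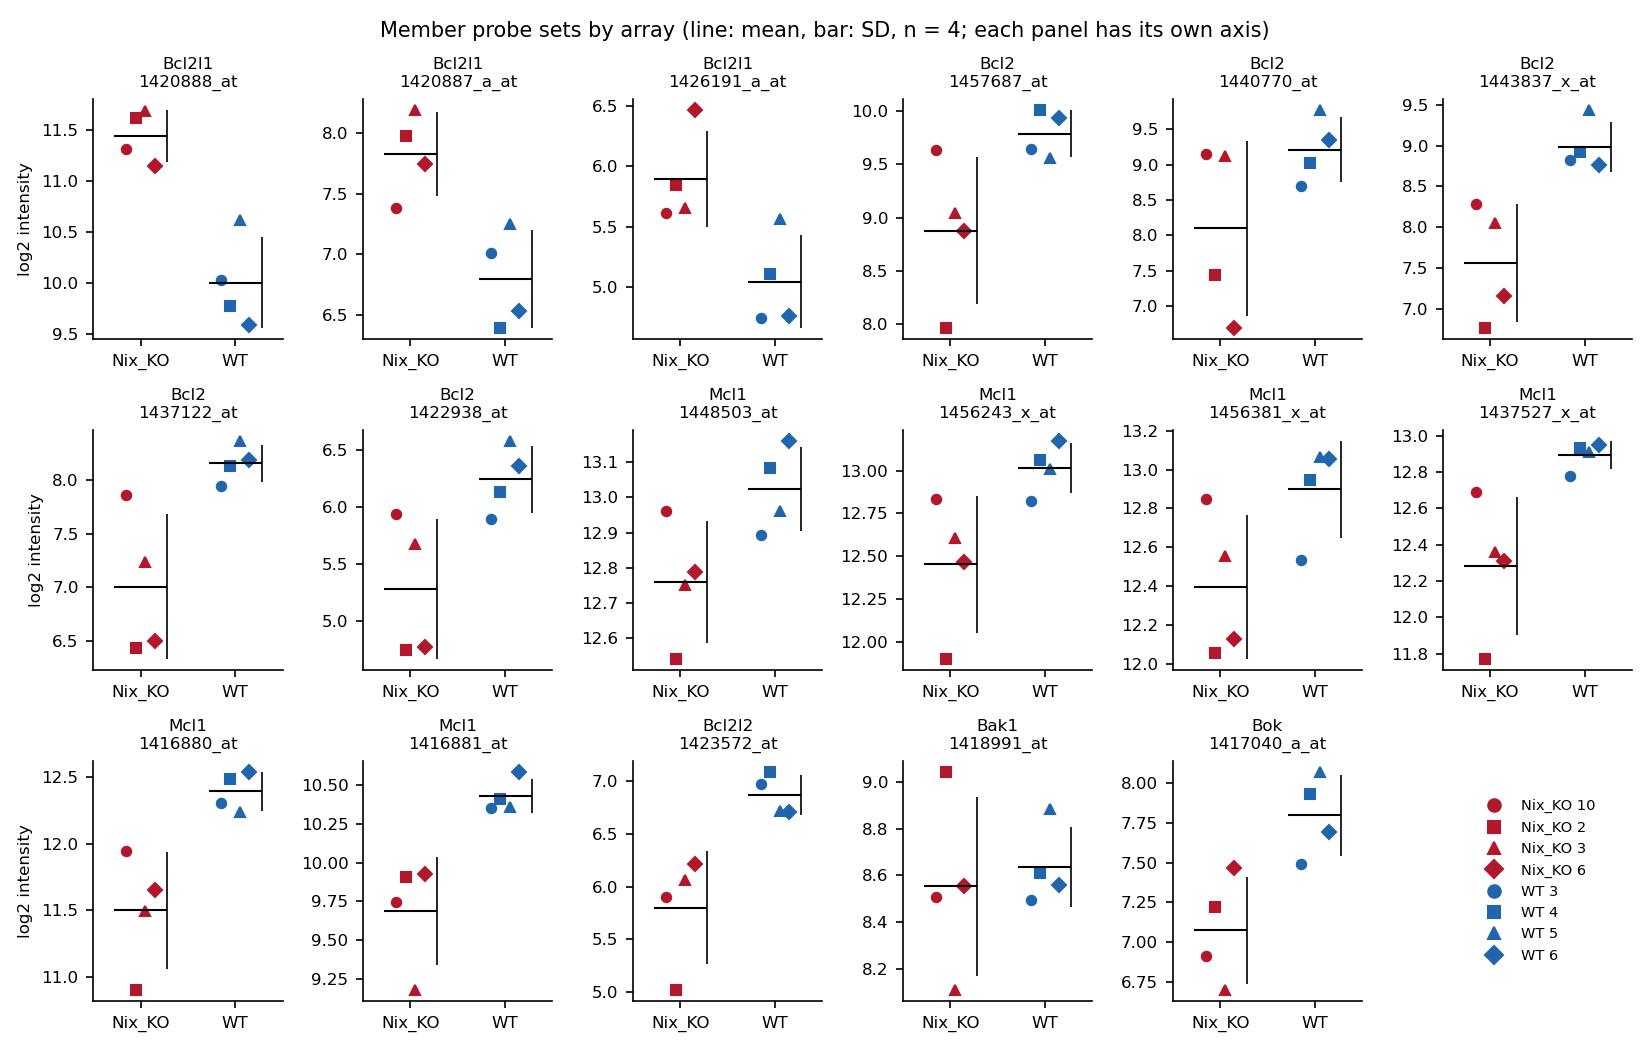
Log2 intensity of the 17 member probe sets past the filter in each array, Nix_KO left (red) and WT right (blue), with 1 symbol per array, the mean as a line and the SD as a bar (n = 4). The Nix_KO arrays lie above all WT arrays in the 3 Bcl2l1 panels and below all WT arrays in 7 panels of Bcl2, Mcl1, Bcl2l2 and Bok.

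Bcl2l1 encodes BCL-XL, the survival protein that red cell precursors need as they make haemoglobin. Its brightest probe set, 1420888_at, read 11.31 in Nix_KO 10, 11.62 in Nix_KO 2, 11.68 in Nix_KO 3 and 11.15 in Nix_KO 6, against 10.03, 9.77, 10.62 and 9.59 in WT arrays 3, 4, 5 and 6. All 4 Nix_KO spleens were above all 4 WT spleens, with 0.53 between the nearest arrays. The difference was 1.44 ± 0.24 (SE), a 2.71-fold rise (limma adjusted p = 0.00378). It was 1.68 without the 3 arrays with pancreatic signal (limma adjusted p = 0.0476).

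The other Bcl2l1 probe sets moved the same way. Probe set 1420887_a_at read 7.38, 7.97, 8.19 and 7.74 in Nix_KO 10, 2, 3 and 6, against 7.01, 6.39, 7.25 and 6.53 in WT 3, 4, 5 and 6. The groups did not overlap, but Nix_KO 10 lay only 0.13 above WT 5. Its difference was 1.02 ± 0.24 (SE), or 2.03-fold (limma adjusted p = 0.0130), and 1.24 without the 3 arrays with pancreatic signal, where it missed the threshold (limma adjusted p = 0.0521).

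The dimmest tested Bcl2l1 probe set, 1426191_a_at, read 5.61, 5.84, 5.65 and 6.47 in Nix_KO 10, 2, 3 and 6, against 4.75, 5.11, 5.57 and 4.76 in WT 3, 4, 5 and 6. With values under 5 set to 5 it was at least 1.65-fold higher in Nix_KO, and the difference without that floor was 0.85 ± 0.25 (SE, limma adjusted p = 0.0305). The nearest arrays were 0.04 apart, and the call was lost without Nix_KO 2, Nix_KO 6, WT 3, WT 4 or WT 6, with no filter (limma adjusted p = 0.0586), and without the 3 arrays with pancreatic signal (1.04, limma adjusted p = 0.0966). WT 5 was the highest WT array in all 3 probe sets. The remaining one, 1426050_at, stayed between 2.53 and 3.01 in every array and was not tested.

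**Figure D2:**
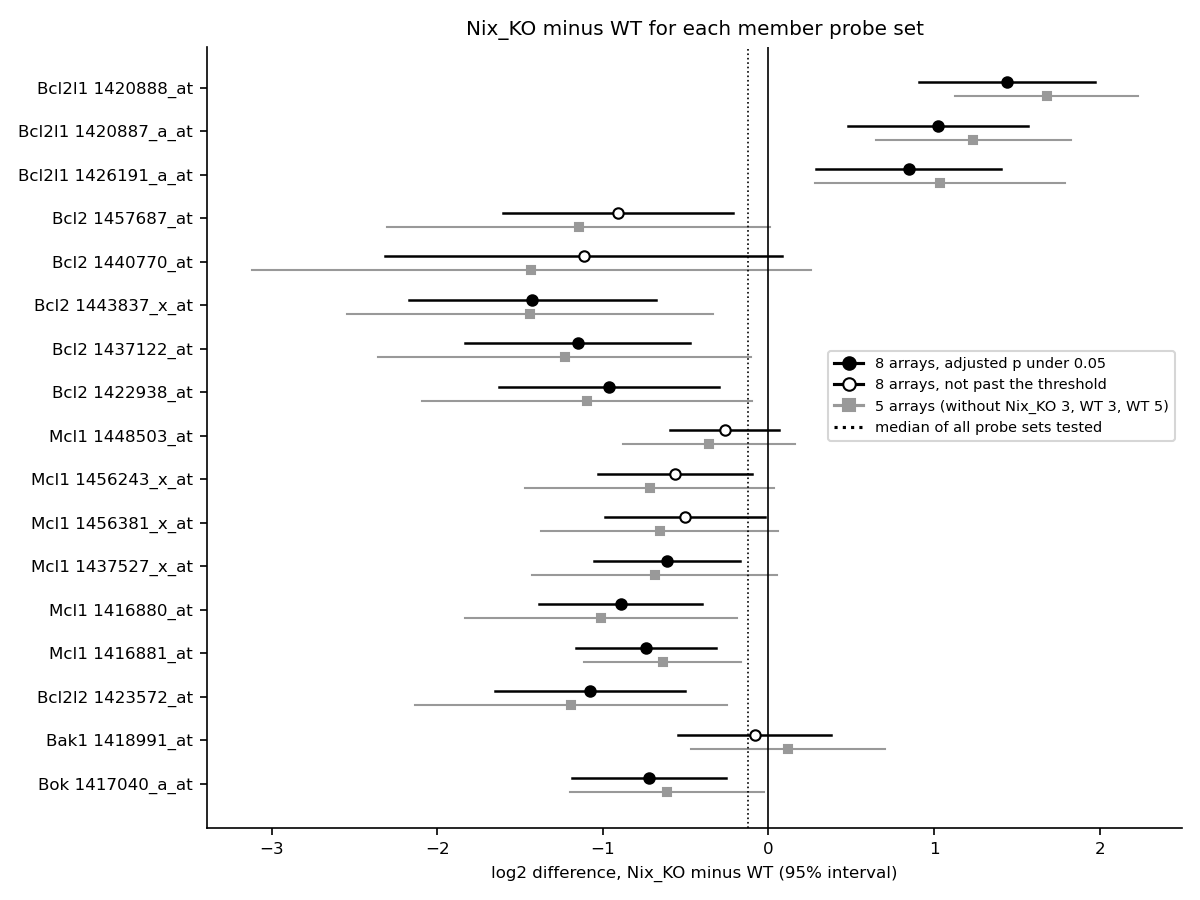
Log2 difference, Nix_KO minus WT, of each of the 17 member probe sets with its 95% interval, from all 8 arrays (black circles, filled where the adjusted p was under 0.05) and from the 5 arrays left without Nix_KO 3, WT 3 and WT 5 (grey squares). The dotted line is the median of all probe sets tested, -0.12, and the 3 Bcl2l1 probe sets are the only ones to its right with an interval that leaves out 0 in the 8 arrays.

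The direction of Bcl2l1 matched that of erythroid genes in these arrays, and its induction by the erythropoietin receptor through STAT5 and by GATA1 is known in red cell precursors. All 14 tested erythroid markers were higher, with a list mean of 12.42 to 12.90 in Nix_KO and 9.51 to 11.51 in WT arrays. Markers of neutrophils and myeloid precursors (13 of 13 tested) and of proliferation (9 of 9) rose as well. The neutrophil and myeloid precursor list means were 9.91 to 10.84 in Nix_KO and 7.04 to 9.55 in WT arrays. The part of any of these sets in the rise of Bcl2l1 was not tested. In whole spleen more cells of a type and more RNA per cell cannot be told apart. In WT 3, 4, 5 and 6 the erythroid mean was 11.51, 10.98, 10.74 and 9.51. Bcl2l1 probe set 1420888_at read 10.03, 9.77, 10.62 and 9.59 there. In Nix_KO 10, 2, 3 and 6 the erythroid mean was 12.42, 12.64, 12.90 and 12.84, and 1420888_at read 11.31, 11.62, 11.68 and 11.15. WT 3, WT 5 and Nix_KO 3 are the arrays with pancreatic signal.

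Of 9 tested genes of the erythropoietin, JAK2, STAT5 and GATA1 axis, 4 rose and 2 fell, with a median difference of -0.057. Of all genes, each taken as its brightest probe set, 34.4% were called, 13.1% higher and 21.3% lower, with a median of -0.15. Gata1 and Epor also stand in the erythroid marker list. Pim1, a survival kinase induced by STAT5, rose 2.14-fold (limma adjusted p = 0.00293), Gata1 rose 4.60-fold (limma adjusted p = 0.00470) and Epor, the erythropoietin receptor gene, rose 4.17-fold (limma adjusted p = 0.00627). Stat5b, encoding a STAT5 protein, fell by 0.60 on the log2 scale by its brightest probe set (limma adjusted p = 0.0143), a call lost without WT 4. Of 2 tested Stat5b probe sets 1 was called lower. Stat5a, the close paralog of Stat5b, differed by -0.41 (limma adjusted p = 0.0991). Without the 3 arrays with pancreatic signal 1 gene of this list, Gata1, was called higher and 0 lower.

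Promoter sequence is shown for Bcl2l1 and Bcl2, the survival genes with the largest differences in opposite directions. The sequences are RefSeq's for GRCm38.p6, 250 bases before an annotated start, with matches on either strand in capitals. The words searched were the GATA factor word AGATAA, also with T as its first letter or G as its last, the STAT factor word TTCNNNGAA, and the GC box word GGGCGG, and none of these contains another.
Bcl2l1, chr2:152828490-152828739, minus strand: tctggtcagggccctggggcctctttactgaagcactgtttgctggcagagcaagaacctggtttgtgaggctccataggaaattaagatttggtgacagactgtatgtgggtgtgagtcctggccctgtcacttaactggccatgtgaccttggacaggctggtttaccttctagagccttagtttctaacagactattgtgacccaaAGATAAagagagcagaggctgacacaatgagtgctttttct
Bcl2, chr1:106714291-106714540, minus strand: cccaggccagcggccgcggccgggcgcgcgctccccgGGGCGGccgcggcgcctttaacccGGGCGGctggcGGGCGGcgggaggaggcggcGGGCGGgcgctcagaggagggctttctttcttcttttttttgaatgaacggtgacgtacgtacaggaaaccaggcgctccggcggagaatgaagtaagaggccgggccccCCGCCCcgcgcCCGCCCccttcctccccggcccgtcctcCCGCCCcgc
The Bcl2l1 window holds 1 GATA word, AGATAA, whose first base lies 41 bases before the start, no STAT word and no GC box. It belongs to 1 of 3 annotated Bcl2l1 starts, and the windows of the other two hold none of these GATA or STAT words. The Bcl2 window holds 7 GC boxes, no GATA word and no STAT word, and its GC content is 74.8%, against 48.4% in the Bcl2l1 window. Windows were found for 6 of the 7 genes, 8 in all, of which 1 held a GATA word and 0 a STAT word. Among all 32851 windows of the same length, 26.5% held a GATA word, 7.02% a STAT word and 32.7% a GC box. A match describes the letters, not binding.

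Bcl2, the founding survival gene of the family and a main guard of resting lymphocytes, was lower in Nix_KO by every probe set, and 3 of 5 passed the test. The differences ran from -1.43 to -0.91, with adjusted p from 0.0123 to 0.141 in limma. Probe set 1443837_x_at read 8.28, 6.76, 8.05 and 7.16 in Nix_KO 10, 2, 3 and 6, against 8.82, 8.92, 9.44 and 8.76 in WT 3, 4, 5 and 6. All Nix_KO arrays were below all WT arrays, and the fall was 2.69-fold (-1.43 ± 0.33 SE, limma adjusted p = 0.0123). An _x_at probe set may by its design also bind other sequences.

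Probe set 1437122_at read 7.86, 6.43, 7.24 and 6.49 in Nix_KO 10, 2, 3 and 6, against 7.95, 8.13, 8.37 and 8.19 in WT 3, 4, 5 and 6. The groups were apart by 0.09, and the fall was 2.22-fold (-1.15 ± 0.30 SE, limma adjusted p = 0.0194). Its call was lost without WT 4, WT 5 or WT 6. Probe set 1422938_at read 5.94, 4.74, 5.67 and 4.77 in Nix_KO 10, 2, 3 and 6, against 5.89, 6.13, 6.58 and 6.36 in WT 3, 4, 5 and 6. Here Nix_KO 10 lay above WT 3, and with values under 5 set to 5 the fall was at least 1.79-fold (limma adjusted p = 0.0359 without that floor). Its call was lost without any 1 of the arrays Nix_KO 2, Nix_KO 6, WT 4, WT 5 and WT 6, with array weights (-0.60, limma adjusted p = 0.0742) and with no filter (limma adjusted p = 0.0741).

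The 2 brightest Bcl2 probe sets did not pass, the brightest by a small margin. Probe set 1457687_at read 9.63, 7.97, 9.04 and 8.87 in Nix_KO 10, 2, 3 and 6, against 9.64, 10.01, 9.55 and 9.93 in WT 3, 4, 5 and 6, so that Nix_KO 10 alone lay within the WT range. The difference was -0.91 ± 0.31 (SE, limma adjusted p = 0.0520), -1.16 without Nix_KO 10 (limma adjusted p = 0.0137) and -0.60 without Nix_KO 2 (limma adjusted p = 0.0729). Adjusted over 11027 genes with 1 probe set each, in place of all probe sets, the same difference had a limma adjusted p of 0.036. The call was also gained with a stricter filter (limma adjusted p = 0.0461), with values under 5 set to 5 (0.0495), with array weights (0.0498) and with trend and robust variance (0.0498), so this probe set lies at the threshold. Probe set 1440770_at read 9.15, 7.44, 9.13 and 6.68 in Nix_KO 10, 2, 3 and 6, against 8.70, 9.02, 9.78 and 9.36 in WT 3, 4, 5 and 6. Its Nix_KO arrays split, with 10 and 3 inside the WT range, and the difference was -1.12 ± 0.54 (SE, limma adjusted p = 0.141). It was -0.64 without Nix_KO 6 and -0.47 with array weights.

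In all 5 Bcl2 probe sets Nix_KO 10 was the highest Nix_KO array and Nix_KO 3 the next. The mean of 12 tested T cell markers was 9.40 in Nix_KO 10, 8.34 in Nix_KO 2, 8.34 in Nix_KO 3 and 8.69 in Nix_KO 6, against 9.35 to 9.96 in WT arrays. The mean of 11 tested B cell markers was 10.48, 9.70, 9.79 and 10.11 in Nix_KO 10, 2, 3 and 6. In WT arrays it was 11.39 to 11.69. Of these markers 9 T cell and 11 B cell genes fell, and their part in the lower Bcl2 signal was not tested. Without the 3 arrays with pancreatic signal the 5 Bcl2 differences ran from -1.44 to -1.10, as large as before, but 0 passed (limma adjusted p from 0.106 to 0.221).

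**Figure D3:**
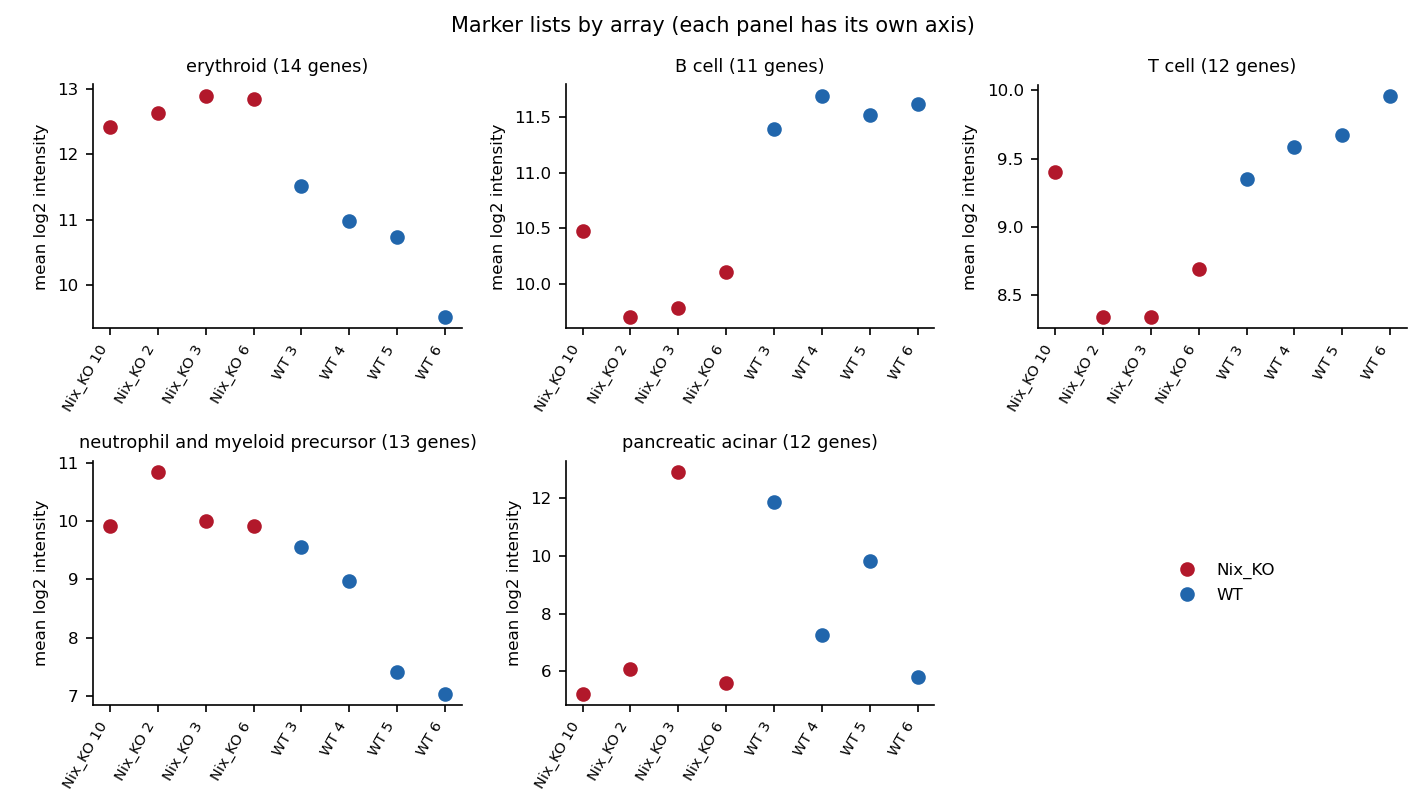
Mean log2 intensity of the tested genes of 5 marker lists in each array, Nix_KO in red on the left and WT in blue on the right. Neutrophil and myeloid precursor means were 9.91 to 10.84 in Nix_KO and 7.04 to 9.55 in WT. Erythroid means were 12.42 to 12.90 in Nix_KO and 9.51 to 11.51 in WT, B cell means were 9.70 to 10.48 in Nix_KO and 11.39 to 11.69 in WT, and pancreatic acinar means were high in Nix_KO 3, WT 3 and WT 5.

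Mcl1 encodes a short-lived survival protein that many blood cells need. Its 6 probe sets all read lower on average in Nix_KO, from -0.89 to -0.27, and 3 of them passed. Probe set 1416880_at read 11.95, 10.90, 11.50 and 11.65 in Nix_KO 10, 2, 3 and 6, against 12.31, 12.49, 12.24 and 12.54 in WT 3, 4, 5 and 6. All Nix_KO arrays were lower than all WT arrays, and the fall was 1.86-fold (-0.89 ± 0.22 SE, limma adjusted p = 0.0152).

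Probe set 1416881_at read 9.75, 9.90, 9.18 and 9.93 in Nix_KO 10, 2, 3 and 6, against 10.35, 10.41, 10.36 and 10.58 in WT 3, 4, 5 and 6. The groups were 0.43 apart, and the fall was 1.67-fold (-0.74 ± 0.19 SE, limma adjusted p = 0.0177), a call lost without WT 6. Probe set 1437527_x_at read 12.69, 11.77, 12.36 and 12.31 in Nix_KO 10, 2, 3 and 6, against 12.78, 12.93, 12.91 and 12.95 in WT 3, 4, 5 and 6. It was 1.53-fold lower (limma adjusted p = 0.0411), with groups 0.09 apart, and lost its call without any 1 array other than Nix_KO 10, with arrays centred on their median (-0.49, limma adjusted p = 0.0588) and with no filter (limma adjusted p = 0.0597).

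The brightest Mcl1 probe set, 1448503_at, read 12.96, 12.54, 12.75 and 12.79 in Nix_KO 10, 2, 3 and 6, against 12.89, 13.08, 12.96 and 13.16 in WT 3, 4, 5 and 6. Nix_KO 10 lay within the WT range, and the difference of -0.27 (-0.265 before rounding, 95% interval -0.59 to 0.06) did not pass (limma adjusted p = 0.197). Probe sets 1456243_x_at and 1456381_x_at differed by -0.57 and -0.50 (limma adjusted p = 0.0652 and 0.103). For 1456243_x_at the Nix_KO arrays ran from 11.90 to 12.83 and the WT arrays from 12.82 to 13.17. For 1456381_x_at they ran from 12.06 to 12.85 in Nix_KO and from 12.53 to 13.06 in WT. Nix_KO 2 was the lowest Nix_KO array in 5 of the 6 Mcl1 probe sets, all but 1416881_at, and WT 3 was the lowest WT array in 5, all but 1416880_at. Without the 3 arrays with pancreatic signal the 6 differences ran from -1.01 to -0.36 and 0 passed (limma adjusted p from 0.0998 to 0.301).

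That probe sets of Bcl2 and Mcl1 differ in call was known from these same arrays, so the following is no independent evidence of it. Each tested probe set was compared, array by array, with the brightest probe set of its gene. Of 11 pairs over Bcl2, Bcl2l1 and Mcl1, 0 passed after adjustment over the 11 (two-sided exact permutation test), and 4 had the smallest p that 4 against 4 arrays can give, 0.0286 (adjusted p = 0.0786). At that smallest p at least 7 of the 11 pairs would have to reach it for any to pass, so the count of 0 does not show that probe sets changed alike. The 4 pairs at that p were 1416880_at, 1437527_x_at and 1456243_x_at of Mcl1, whose differences minus that of 1448503_at were -0.63, -0.35 and -0.30, and 1420887_a_at of Bcl2l1, whose difference minus that of 1420888_at was -0.41. The Mcl1 pairs share 1448503_at and are not independent. The 4 Bcl2 pairs differed by -0.52 to -0.055, with exact permutation p from 0.114 to 0.857. Among 4848 genes with several tested probe sets, 29.2% had probe sets that differed in call. The share was 51.3% among genes with 5 tested probe sets, as for Bcl2, and 60.3% among those with 6, as for Mcl1. With 3, as for Bcl2l1, whose 3 were all called higher, it was 32.8%. A range of differences also widens with the number of probe sets. The range was 0.52 for Bcl2, against a median of 0.69 over 189 genes that also have 5 tested probe sets. It was 0.63 for Mcl1, against 0.72 over 73 genes with 6, and 0.59 for Bcl2l1, against 0.42 over 1172 genes with 3. Averaged over their tested probe sets, an alternative chosen after the values were seen, Bcl2 differed by -1.11 ± 0.32, Bcl2l1 by 1.10 ± 0.20 and Mcl1 by -0.60 ± 0.16 (SE, limma adjusted p = 0.0185, 0.00231 and 0.0161 over 11027 genes).

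Bcl2l2, encoding BCL-W, a survival protein known for its need in sperm formation, fell. Its probe set 1423572_at read 5.90, 5.02, 6.06 and 6.21 in Nix_KO 10, 2, 3 and 6, against 6.98, 7.09, 6.72 and 6.71 in WT 3, 4, 5 and 6. The groups were apart by 0.50, with Nix_KO 2 the lowest array, and the fall was 2.11-fold (-1.08 ± 0.26 SE, limma adjusted p = 0.0132). It kept its call whichever single array was left out, and was -1.19 without the 3 arrays with pancreatic signal (limma adjusted p = 0.112). The other 3 probe sets of Bcl2l2 and the single one of Bcl2l10, a family member best known from the ovary and testis in mouse, were dim and not tested. Over all 6 dim probe sets of the 7 genes the values ran from 2.06 to 3.32.

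Bak1, encoding BAK, a pore former of the outer membrane, did not pass. Its probe set 1418991_at read 8.51, 9.04, 8.11 and 8.55 in Nix_KO 10, 2, 3 and 6, against 8.49, 8.61, 8.88 and 8.56 in WT 3, 4, 5 and 6. The Nix_KO arrays reached both above and below the WT range, and the difference was -0.083 with a 95% interval from -0.54 to 0.38 (limma adjusted p = 0.783). That interval leaves room for a moderate change either way, and the sign turned with arrays centred on their median (0.039), without Nix_KO 3 (0.065) and without the 3 arrays with pancreatic signal (0.12). The second Bak1 probe set, 1425716_s_at, was dim, at 2.79 to 2.98.

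Bok encodes a relative of BAK that is known to sit largely at the endoplasmic reticulum and to bind inositol trisphosphate receptors. Its probe set 1417040_a_at read 6.91, 7.22, 6.70 and 7.46 in Nix_KO 10, 2, 3 and 6, against 7.49, 7.93, 8.07 and 7.69 in WT 3, 4, 5 and 6. The groups did not overlap but were only 0.03 apart, and the fall was 1.65-fold (-0.72 ± 0.21 SE, limma adjusted p = 0.0274). The call was lost with arrays centred on their median (-0.60, limma adjusted p = 0.0534), with quantile normalization (-0.62, limma adjusted p = 0.0524), and without Nix_KO 10, Nix_KO 3, WT 4, WT 5 or WT 6. It was -0.61 without the 3 arrays with pancreatic signal (limma adjusted p = 0.157). Stromal and endothelial markers were lower beside it, 9 of 10 tested, with list means of 7.14 to 7.85 in Nix_KO and 8.53 to 8.78 in WT arrays. Lower calls were also made for 11 of 11 tested B cell, 9 of 12 T cell, 7 of 8 NK cell and 6 of 8 dendritic cell markers. Klre1, of the NK cell list, passed the filter through the WT arrays alone. Fewer were lower among macrophage markers, 3 of 11, and megakaryocyte and platelet markers, 2 of 7, where 21.3% of all genes were called lower. The part of any of these cell types in the fall of Bok was not tested.

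Over the next 4 lists, of partners and regulators of these proteins, 15 of 44 tested genes were called, or 34.1%, a share near the 34.4% of all genes, with 7 higher and 8 lower. Of 12 tested genes of the rest of the BCL2 family, 2 rose, 2 fell and 8 did not pass, with a median of -0.079. Bmf and Pmaip1, BH3-only genes whose proteins bind survival members (PMAIP1, also called NOXA, mainly MCL1), fell 2.54-fold and 2.05-fold (limma adjusted p = 0.00385 and 0.00819). Bcl2l13, encoding a mitochondrial family member, rose 2.10-fold (limma adjusted p = 0.0119). Bcl2l15 was at least 1.40-fold higher with values under 5 set to 5 (limma adjusted p = 0.00575 without that floor), having passed the filter through the Nix_KO arrays alone, and its call was lost in the fit with that floor. Bid and Bcl2l11, the direct activators of BAK and BAX, differed by -0.45 and 0.090 (limma adjusted p = 0.126 and 0.803), and Bnip3, the closest relative of Nix, by -0.24 (limma adjusted p = 0.231).

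Among 7 tested channels and partners of the outer membrane and endoplasmic reticulum, 3 fell and 1 rose, with a median of 0.24. The inositol trisphosphate receptor genes Itpr3 and Itpr2, whose channels release calcium and are known to bind BCL2 and BCL-XL, fell 3.11-fold and 1.73-fold (limma adjusted p = 0.00327 and 0.00739). Of 4 tested Itpr2 probe sets 3 were called lower. Tmbim6, encoding BAX inhibitor 1, was 1.51-fold lower in Nix_KO (limma adjusted p = 0.0190), a call that was lost without WT 4, WT 5 or WT 6. Vdac3, a porin of the outer membrane, rose 1.49-fold (limma adjusted p = 0.0442), a call lost without any 1 array other than Nix_KO 3, with no filter (limma adjusted p = 0.0604) and with array weights (limma adjusted p = 0.0579). Vdac2, the porin that holds BAK at the membrane, differed by 0.24 ± 0.18 (SE, limma adjusted p = 0.332).

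Of 12 tested genes of MCL1 and BCL2 turnover and phosphorylation, 2 rose and 2 fell, with a median of -0.0051. Btrc, a substrate receptor of a ubiquitin ligase, rose 1.86-fold, and Bag1, a co-chaperone that binds BCL2, rose 1.73-fold (limma adjusted p = 0.0102 and 0.0151). Of 3 tested Btrc probe sets 2 were called higher. Ube2q1, a ubiquitin-conjugating enzyme, was 1.78-fold lower in Nix_KO (limma adjusted p = 0.0165), and its call was lost without WT 4 or WT 6. Mapk8, encoding the kinase JNK1, fell 1.53-fold by its brightest probe set (limma adjusted p = 0.0404), but of its 4 tested probe sets 1 was called higher and 1 lower, and the call of the brightest was lost without Nix_KO 2, Nix_KO 6, WT 3, WT 4 or WT 6. It was also lost with arrays centred on their median (limma adjusted p = 0.0911), with quantile normalization (limma adjusted p = 0.0845) and with no filter (limma adjusted p = 0.0582). Huwe1, the MCL1 ubiquitin ligase, differed by -0.32 (limma adjusted p = 0.274).

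Downstream of the pore, of 13 tested genes of mitochondrial release and caspase activation 2 rose and 1 fell, with a median of 0.0077. Birc5, encoding survivin, which also acts in cell division, rose 4.20-fold (limma adjusted p = 0.00307), beside 9 of 9 tested proliferation markers that rose. Htra2, a mitochondrial protease released with cytochrome c, rose 1.84-fold (limma adjusted p = 0.0122), and Birc3, an inhibitor of apoptosis, fell 2.06-fold (limma adjusted p = 0.00717). Over these 4 lists 1 gene, Birc5, was called higher and 0 lower without the 3 arrays with pancreatic signal.

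**Figure D4:**
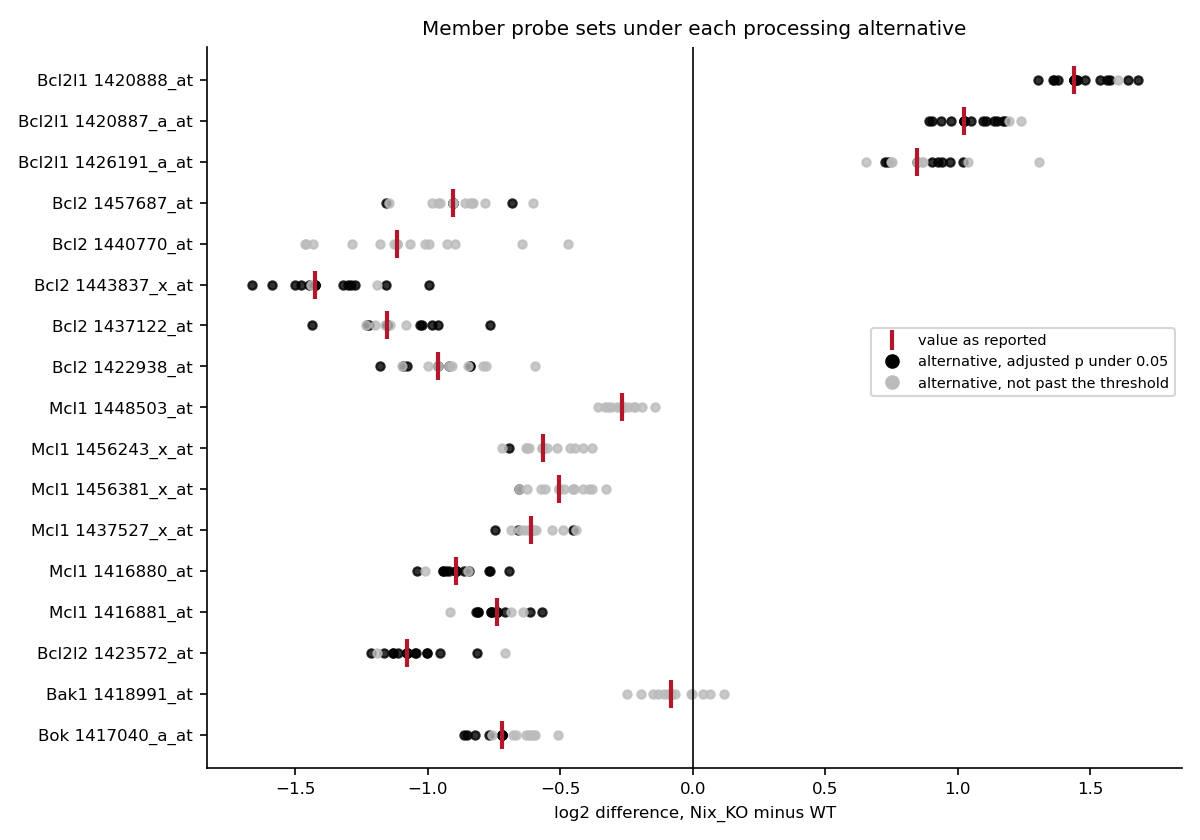
Log2 difference, Nix_KO minus WT, of each member probe set as reported (red bar) and under each processing alternative (circles, black where the adjusted p was under 0.05). All alternatives keep the sign of all probe sets but Bak1 1418991_at, which ran from -0.25 to 0.12.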

How the data were processed

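Per the submitters' processing notes, the authors made the deposited intensity values with GCRMA, a method designed to subtract background by probe base content, quantile-normalize and sum up the probes of each set. Its version, the step that made the values linear and any later scaling are not given in the sources used here. Array medians were 28.9 to 30.6, and 48.6% to 49.4% of probe sets per array reached a log2 intensity of 5. GCRMA pulls weak probe sets to a common low level, so differences of dim ones depend on it, and 4 arrays per genotype limit precision.

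The 64 control probe sets were left out, intensities were log2-transformed with no offset, and limma 3.58.1 (lmFit and eBayes, two-sided, R 4.3.3) was fitted without covariates. Genes came from the platform annotation, and a list gene was its brightest tested single-gene probe set. Named genes were all member probe sets, from each pathway list at most the 4 called genes of lowest adjusted p, 9 chosen regardless of value, of which Bax was not analysed here, and the 3 genes of nearest profile per member. Members and lists were chosen with earlier results of these data known. Alternatives changed the filter, floor, scaling, weights, variance model, unit and arrays. On simulated data with 22347 probe sets, 67 were changed 1.5-fold, 67 were changed 2-fold and 66 were changed 4-fold. The fit recovered 1.49%, 29.9% and 86.4% of these, with 2.5% of calls false. The adjusted threshold depends on how many probe sets change, and 6711 were called in the real data. The simulated shares are therefore not the recovery of the real comparison. Background correction and slide could not be varied, since scanner data were not used here. Plots used matplotlib 3.10.9 and Python 3.11.15.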

Additional observations from a re-analysis of the deposited data

Results flagged for a closer look

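In 0 of 34 groups of 4 arrays did a member probe set have 1 array far from the other three. Among 86 such groups of other named genes 3 did, where chance gives about 1 in 20. Vdac2 read 11.52 in WT 5, against 11.83 in the nearest WT array. Lrp6 read 6.25 in Nix_KO 2, against 7.50 in the nearest Nix_KO array. Sars read 10.59 in WT 5, against 10.21 in the nearest WT array.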

How the results depend on the processing

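The 3 higher and 8 lower member probe sets stayed within 1.5 times those counts with no filter, a stricter filter, a floor at 5, both scalings, array weights, and trend and robust variance. Leaving out 1 array at a time gave 2 to 3 higher and 3 to 10 lower, the lower counts being 4 without WT 4, 4 without WT 5 and 3 without WT 6. With 1 probe set per gene 1 gene was higher and 3 lower. With the mean of the tested probe sets per gene, chosen after seeing the data, 1 gene was higher and 4 lower. The share of all genes called in these fits is not given here, nor that of all probe sets without 1 array. These counts therefore stand without a background share. In the main fit 34.4% of all genes were called by their brightest probe set. Without the 3 arrays with pancreatic signal the counts were 1 and 0, with 690 of all probe sets passing. The numbers 3 and 6 occur in both genotypes, and a replicate block on those 4 arrays gave 0 higher and 0 lower, as did the same 4 arrays without the block; the deviations of same-numbered arrays correlated at 0.25 and 0.15, and nothing in the labels pairs them. The pairs of probe sets within a gene gave 0 calls with the floor, with quantile normalization and without any 1 array, where 1 to 5 pairs had an unadjusted exact permutation p under 0.05; without the 3 arrays with pancreatic signal the smallest p possible is 0.1. Bak1 changed sign with arrays centred (0.039), without Nix_KO 3 (0.065) and without the 3 arrays with pancreatic signal (0.12), with a range of -0.25 to 0.065 when 1 array was left out, and Bcl2l11 without Nix_KO 10 (-0.055) and without Nix_KO 3 (-0.026), with a range of -0.055 to 0.30. Of 293 values of member probe sets under alternatives, 227 kept direction and side of the threshold, 54 lost the call, 9 gained one and 3 changed sign; the causes were not tested. Over all probe sets 41.6% of calls were higher (2789 of 6711), against 52.4% with arrays centred and 48.1% with quantile normalization.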

Other observations

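Genes whose profile over the 8 arrays, centred on its own mean, lay closest to that of a member's brightest probe set were found among 11021 genes by root mean square distance in log2 units. The description carries no test, since genotype alone makes many profiles alike. Closest to Bcl2l1 were Bsdc1 (0.13), Marchf2, a membrane ubiquitin ligase (0.15), and Rsad2, the interferon-induced viperin gene (0.16), where the median gene lay at 0.90. Closest to Bcl2 were Lyst, which acts in lysosome traffic (0.12), Zcchc2 (0.12) and Ccl22, a dendritic cell chemokine (0.13), with the median gene at 0.64. Closest to Bcl2l2 were Lrp6, a WNT co-receptor (0.13), Adgrf5, an adhesion receptor (0.14), and Atpsckmt (0.14), with the median gene at 0.64.

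Closest to Mcl1 were Nkap (0.07), Sinhcaf (0.07) and Ppp2r2a, a regulatory subunit of protein phosphatase 2A (0.07), with the median gene at 0.36. Closest to Bak1 were Pih1d1 (0.06), Sars, a seryl-tRNA synthetase (0.06), and B3gat3 (0.08), with the median gene at 0.42. Closest to Bok were Uap1l1 (0.10), Nagk, a kinase of N-acetylglucosamine (0.10), and Hps6 (0.10), with the median gene at 0.47. Leaving out 1 array at a time kept 1 to 3 of the 3 genes nearest to Bcl2l1, but 0 to 3 for Mcl1, Bak1 and Bcl2l2 and 0 to 2 for Bcl2 and Bok.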
